A study of Homo sapiens with 14 samples.

Results

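A set of 9 genes of the NRF2 antioxidant pathway was followed at the transcript level in human embryonic kidney 293 cells that carry RNA-editing enzymes. NFE2L2 encodes the transcription factor NRF2, KEAP1 encodes its repressor, and HMOX1, NQO1, GCLC, GCLM, TXNRD1, SRXN1 and OSGIN1 are well-known NRF2 targets. They were chosen by name, not by their values, but with earlier results of these data known. Each was represented by its RefSeq transcript with the highest mean FPM (fragments scaled to library size) over the 14 libraries. All 9 were measured and passed the filter on low counts, out of 22410 genes represented and 16418 genes tested. The host line, 293 Flip-In T-REx, holds a single genomic site for inserting a transgene. Its derivatives carried the SNAP-ADAR1Q gene (SA1Q), SNAP-ADAR1 (SA1), SNAP-ADAR2Q (SA2Q), SNAP-ADAR2 (SA2) or an empty vector (ctrl). A SNAP-ADAR joins the SNAP tag, which bonds covalently to a benzylguanine-bearing guide RNA, to the adenosine deaminase domain of ADAR (SA1) or ADARB1 (SA2). The letter Q marks a glutamate-to-glutamine change of that domain that is known to raise its activity. The 7 groups of 2 libraries were SA1Q, SA1Q+gRNA, SA1+gRNA, SA2Q, SA2Q+gRNA, SA2+gRNA and ctrl, where +gRNA is the labels' mark for added guide RNA. The wild-type enzymes are present here only with guide, and ctrl only without it. The sources used here do not state the guide's target, the promoter of the transgene, its induction or whether a line is 1 clone. A line and its transgene therefore cannot be told apart.

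NRF2 is a basic leucine zipper transcription factor that pairs with small MAF proteins on antioxidant response elements. In unstressed cells KEAP1, an adaptor of a CUL3 ubiquitin ligase, binds NRF2 and sends it to the proteasome. Electrophiles and oxidants modify cysteines of KEAP1, NRF2 then accumulates, and genes of glutathione synthesis, thioredoxin reduction, quinone reduction and heme breakdown are transcribed. Control of NRF2 acts largely on its protein, so the NFE2L2 transcript alone says little of NRF2 activity, and the target transcripts are the usual readout.

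The antioxidant response element has the core TGACNNNGC, and TGAGNNNGC is a frequent variant. Promoter windows of 300 bases, from 250 before to 50 after the annotated start, were taken from RefSeq (GRCh38.p14) for 8 of the 9 genes, 11 windows in all, and both cores were searched on both strands. The windows of OSGIN1 and GCLM are shown because OSGIN1 was the gene called among the groups and GCLM was the target whose levels ran closest to those of HMOX1. Capitals mark the matches, read 5′ to 3′ along the gene's strand.
OSGIN1 promoter: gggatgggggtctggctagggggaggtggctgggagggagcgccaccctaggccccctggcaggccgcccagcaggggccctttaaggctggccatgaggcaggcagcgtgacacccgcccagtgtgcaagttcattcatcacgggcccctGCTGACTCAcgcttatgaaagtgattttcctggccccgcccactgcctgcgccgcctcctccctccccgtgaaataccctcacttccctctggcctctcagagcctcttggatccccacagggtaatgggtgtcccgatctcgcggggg
GCLM promoter: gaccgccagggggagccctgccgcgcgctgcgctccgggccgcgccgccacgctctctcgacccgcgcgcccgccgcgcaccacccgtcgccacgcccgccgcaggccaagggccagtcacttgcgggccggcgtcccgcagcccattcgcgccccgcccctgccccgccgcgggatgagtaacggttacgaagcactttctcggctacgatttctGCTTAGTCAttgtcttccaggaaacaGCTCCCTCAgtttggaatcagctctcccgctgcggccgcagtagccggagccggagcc
The OSGIN1 window lies at chr16:83952990-83953289 on the plus strand and holds the variant as TGAGTCAGC on the opposite strand, at positions -99 to -91 counted from the first transcribed base as 0. The GCLM window, chr1:93909381-93909680 on the minus strand, holds TGACTAAGC at -34 to -26 and TGAGGGAGC at -8 to 0, both on the opposite strand. Of the 2 KEAP1 windows, the one at chr19:10502722-10503021 held the same TGACTAAGC at -31 to -23 on the opposite strand among its 3 matches, and the other held no match. No match was found in 1 of the 2 NFE2L2 windows or in the windows of GCLC and SRXN1. In all, 7 of the 11 windows held at least 1 match, as did 29.1% of 35116 RefSeq windows of the same length (13.3% for TGACNNNGC and 18.3% for TGAGNNNGC). The cores differ in the last letter before NNN, so no stretch matches both, and a match describes these letters and is not shown to be a bound site.

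Library totals ran from 43.0 to 130.1 M fragments. ADAR transcripts followed the labels, at 1085 to 1603 CPM (counts scaled to library size) in the SA1 lines and 297 to 340 CPM elsewhere, and ADARB1 at 939 to 1163 CPM in the SA2 lines and 25.5 to 37.2 CPM elsewhere. Reads of the transgene and of the endogenous gene cannot be told apart in these values. All 8 markers of the 293 line were detected, among them VIM at 958 to 1285 CPM, KRT8 at 231 to 349 CPM and PAX2 at 2.32 to 5.25 CPM. Markers of liver summed to 0.162 to 0.643 CPM. SA1Q+gRNA replicate 1 and ctrl replicate 1 stood apart from the other 12 libraries on the first principal component (24.7% of the variance), at -43.9 and -39.7 against 0.30 to 13.7. Their deviations fell with transcript length (Spearman's rho -0.284 and -0.285 across genes, which are not independent). That trend was not particular to them, as SA2Q+gRNA replicate 2 was at -0.267. Trends of like size ran the other way in ctrl replicate 2 (0.265), SA1Q+gRNA replicate 2 (0.262) and SA1Q replicate 2 (0.245). In SA1+gRNA replicate 2 every count above 0 was even (100%), where the other libraries had 47.7% to 48.7% even counts. The sources used here give no reason, and halving its counts changed no call among the 9 genes. In bulk RNA a lower level can mean fewer cells that express a gene or less RNA per cell, and these cannot be told apart.

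The pathway was expressed in every library, and most of its transcripts held nearly constant levels. Scaled to transcript length, TXNRD1 was the most abundant at a mean of 74.0 CPM per kilobase over the 14 libraries, above 93.5% of the genes tested. SRXN1 followed at 43.9, KEAP1 at 31.9 and NFE2L2 at 20.1 CPM per kilobase. HMOX1 (16.2), GCLC (15.7) and GCLM (14.02 CPM per kilobase) formed a middle group, while NQO1 at 2.90 and OSGIN1 at 0.905 CPM per kilobase lay above only 36.6% and 22.8% of the genes tested. The spread over the libraries did not follow that order. The highest library exceeded the lowest by 2.26-fold for HMOX1, 2.04-fold for OSGIN1, 1.54-fold for NQO1 and 1.38-fold for GCLM, but by 1.21-fold to 1.28-fold for the other 5 genes.

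**Figure D1:**
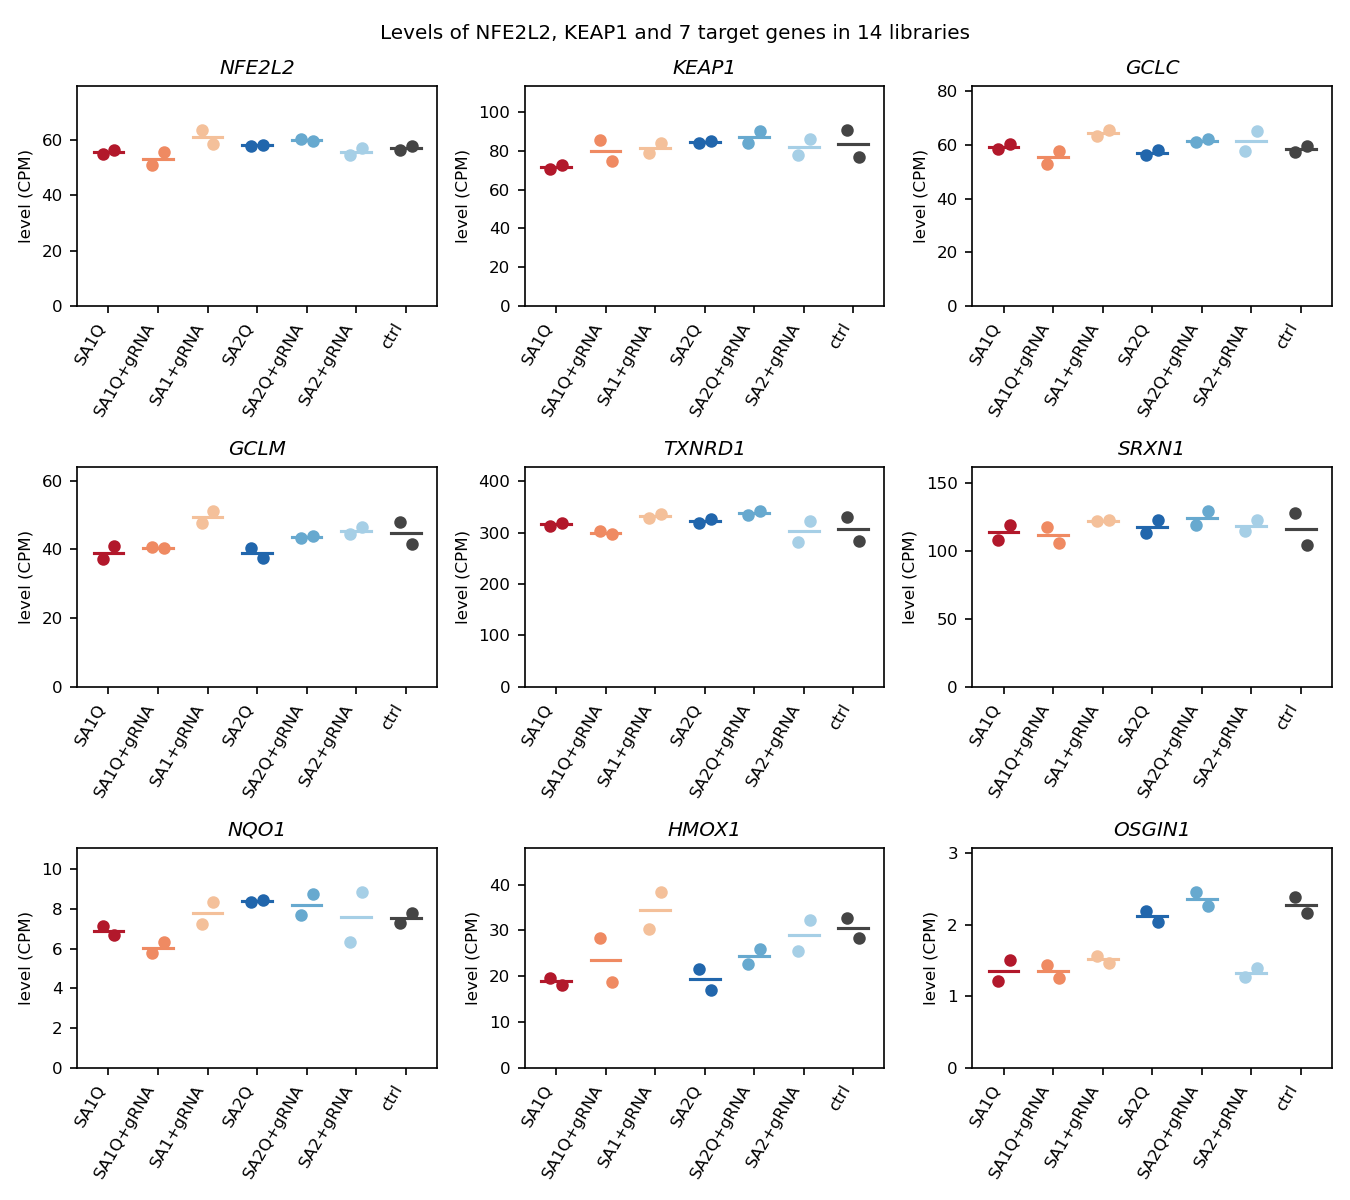
Levels of the 9 pathway genes in CPM (TMM-scaled counts) in each of the 7 groups, ctrl last, where each point is a library and each bar a mean of 2. OSGIN1 sits at 2.04 to 2.46 CPM in SA2Q, SA2Q+gRNA and ctrl and at 1.21 to 1.57 CPM in the other groups, and HMOX1 is lowest in SA1Q and SA2Q.

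Counts were tested with edgeR's quasi-likelihood test over all 14 libraries, with Benjamini-Hochberg adjustment over all 16418 genes, and a gene was called at an adjusted p under 0.05. In the test over the 7 groups, 1 of the 9 genes was called, OSGIN1, where 1.57% of all genes tested were. At an unadjusted p under 0.05 there were 3, HMOX1, GCLM and OSGIN1, where 16.8% of all genes passed. DESeq2 called these 3 genes, where it called 8.97% of all genes with an adjusted p, and limma on log2(FPKM + 0.1) called OSGIN1 (1.52% of all genes). Without both libraries that stood apart edgeR also called these 3 genes, where 11.0% of all genes were called. The design text speaks of independent experiments and the labels say nothing more of how the 2 libraries of a group arose, so the p-values measure the spread between these libraries.

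OSGIN1 encodes an oxidative stress-induced growth inhibitor (chromosome 16, 83986827 to 83999937 of hg19, the build of all gene positions below, plus strand). It was at 1.21 and 1.502 CPM in SA1Q, 1.44 and 1.248 CPM in SA1Q+gRNA, and 1.57 and 1.47 CPM in SA1+gRNA. In the ADARB1-based lines it was at 2.19 and 2.04 CPM in SA2Q, 2.46 and 2.26 CPM in SA2Q+gRNA, and 1.26 and 1.40 CPM in SA2+gRNA. The ctrl libraries were at 2.39 and 2.16 CPM. The 6 libraries of SA2Q, SA2Q+gRNA and ctrl all lay above the 8 libraries of the other 4 groups. That split was seen in the values, and the share of all genes that split so was not counted. Within the high set ctrl overlapped both other groups, and within the low set SA1Q overlapped each of the other 3. The adjusted p over the 7 groups was 0.0398. That call rests on thin counts, 56 to 178 fragments per library. It was kept without ctrl replicate 1 (adjusted p = 0.0427), ctrl replicate 2 (0.0348), SA1Q+gRNA replicate 1 (0.0315) or SA1Q+gRNA replicate 2 (0.0296), and was lost when any of the other 10 libraries was left out, with an adjusted p of up to 0.127 without SA2Q+gRNA replicate 1.

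Against ctrl, OSGIN1 did not reach the threshold in any of the 6 comparisons. The estimates were -0.75 on the log2 scale in SA1Q (SE 0.19, adjusted p = 0.0519), -0.76 in SA1Q+gRNA (SE 0.20, 0.0760), -0.58 in SA1+gRNA (SE 0.18, 0.318) and -0.76 in SA2+gRNA (SE 0.19, 0.165). They were -0.10 in SA2Q (SE 0.19, adjusted p = 0.927) and 0.06 in SA2Q+gRNA (SE 0.18, 0.946). All 6 share the same 2 ctrl libraries. For SA1Q the adjusted p ran from 0.0198 to 0.336 over 24 alternative settings, 7 of which called it. The highest value came without SA1Q replicate 1. SA1Q+gRNA against ctrl holds both libraries that stood apart. Without them the estimate was -0.79 (adjusted p = 0.167), and in SA1Q against ctrl it was -0.68 (adjusted p = 0.0904).

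The comparison between the 2 Q lines, with both guide states combined, was added after the data had been seen. OSGIN1 was called in it, lower in the SA1Q line than in the SA2Q line by a log2 change of -0.73 (SE 0.14, 95% interval -1.03 to -0.44, adjusted p = 0.0115). It was the 1 member called, where 2.75% of all genes were. All 4 SA1Q-line libraries, at 1.21 to 1.502 CPM, lay below all 4 SA2Q-line libraries, at 2.04 to 2.46 CPM. DESeq2 called NQO1 beside it (5.55% of all genes), and limma called OSGIN1 alone (2.44%). OSGIN1 was called in 20 of 24 settings there, and lost without SA1Q replicate 1 (adjusted p = 0.0579), SA2Q replicate 1 (0.0561), SA2Q replicate 2 (0.0525) or SA2Q+gRNA replicate 1 (0.0595). Beside OSGIN1, NFE2L2 and NQO1 also did not overlap between the 2 lines and were lower in the SA1Q line, 3 of 9 where 6.22% of all genes did so. Fitted over all 3 groups of each enzyme, SA1 lines against SA2 lines, the OSGIN1 estimate was -0.43 (SE 0.11, adjusted p = 0.0643), and 0 of 9 genes were called by edgeR (1.49% of all genes). In that comparison 3 of 9 had an unadjusted p under 0.05 (16.2% of all genes), DESeq2 called 0 and limma called OSGIN1 (1.57% of all genes). Without SA1Q+gRNA replicate 1 edgeR also called 1, OSGIN1 (4.36% of all genes). The summed level of 6 blood-cell markers moved in the same direction, at 123 to 142 CPM in the SA1Q line and 169 to 182 CPM in the SA2Q line, and at 123 to 162 CPM in the SA1 lines and 168 to 182 CPM in the SA2 lines. LCP1 made up most of that sum (110 to 163 CPM over all libraries), while PTPRC was at 0.149 to 0.406 CPM and CD3E and HBB were at or near 0. The part of these markers in the OSGIN1 difference was not tested.

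With guide, the Q and wild-type forms of each enzyme could be set side by side. The compared groups also differed in enzyme transcript. Mean ADAR was 1229 CPM in SA1Q+gRNA and 1514 CPM in SA1+gRNA, and mean ADARB1 was 1161 CPM in SA2Q+gRNA and 974 CPM in SA2+gRNA. The part of these levels in the changes below was not tested. For ADARB1, OSGIN1 was at 2.46 and 2.26 CPM in SA2Q+gRNA and 1.26 and 1.40 CPM in SA2+gRNA, a log2 change of 0.82 (SE 0.19, adjusted p = 0.256). No member was called there by edgeR, DESeq2 or limma (0.0122% of all genes by edgeR), and OSGIN1 alone had an unadjusted p under 0.05 (7.86% of all genes). For ADAR the OSGIN1 change was -0.18 (SE 0.19, adjusted p = 0.660). The difference between the 2 Q effects, a contrast added after the data had been seen, was -1.002 for OSGIN1 (SE 0.27, unadjusted p = 0.0022, adjusted p = 0.324). No gene of the series was called in that contrast (0.0%) by edgeR, and of the 9 genes 4 had an unadjusted p under 0.05 (9.39% of all genes), with 0 called by DESeq2 or limma.

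HMOX1 encodes heme oxygenase 1, which opens the heme ring (chromosome 22, 35777060 to 35790207, plus strand). It was at 19.7 and 18.1 CPM in SA1Q, 28.2 and 18.8 CPM in SA1Q+gRNA, and 30.3 and 38.4 CPM in SA1+gRNA. It was at 21.6 and 17.0 CPM in SA2Q, 22.7 and 26.0 CPM in SA2Q+gRNA, and 25.6 and 32.4 CPM in SA2+gRNA. The ctrl libraries were at 32.8 and 28.3 CPM. The 4 libraries of the Q enzymes without guide all lay below ctrl and below both wild-type groups. That split was seen in the values, and the share of all genes that split so was not counted. SA1Q+gRNA, which holds a library that stood apart, spanned from the lowest groups almost to ctrl. HMOX1 had an adjusted p of 0.0651 over the 7 groups and was not called by edgeR, but was called without both libraries that stood apart (adjusted p = 0.00121). In SA1Q against ctrl its log2 change was -0.69 (SE 0.18, 95% interval -1.08 to -0.30, adjusted p = 0.0561), and in SA2Q against ctrl -0.66 (SE 0.18, interval -1.05 to -0.28, adjusted p = 0.239). The same 2 ctrl libraries serve both. For SA1Q the adjusted p ran from 0.00578 with DESeq2 to 0.227 without SA1Q replicate 1, with 8 of 24 settings under the threshold, and the estimate stayed between -0.79 and -0.58. Without both libraries that stood apart it was -0.58, and HMOX1 was called (adjusted p = 0.0351, where 7.32% of all genes were), and in SA2Q it was -0.56 (SE 0.16, adjusted p = 0.0621).

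With guide, HMOX1 was nearer to ctrl in both Q lines, with estimates of -0.38 in SA1Q+gRNA (SE 0.18, adjusted p = 0.365, and -0.59 with an adjusted p of 0.117 without both libraries that stood apart) and -0.33 in SA2Q+gRNA (SE 0.18, adjusted p = 0.564). The estimate was 0.17 in SA1+gRNA (SE 0.18, adjusted p = 0.736) and -0.07 in SA2+gRNA (SE 0.18, adjusted p = 0.935). Guide against no guide gave 0.31 in SA1Q (SE 0.18, adjusted p = 0.477) and 0.34 in SA2Q (SE 0.18, adjusted p = 0.9997). Taken over both Q lines, a contrast added after the data had been seen, the guide effect was 0.32 (SE 0.13, unadjusted p = 0.0247, adjusted p = 0.804). The SA1Q estimate rested on which SA1Q+gRNA library was used. Without SA1Q+gRNA replicate 2 it was 0.57 and HMOX1 was called (adjusted p = 0.0428). That setting leaves the SA1Q+gRNA library that stood apart as the only one of its group, takes its spread from the other groups, and called 12.6% of all genes where the fit of all libraries called 0.0%. Without SA1Q+gRNA replicate 1 the estimate was -0.01. In SA1Q+gRNA against SA1+gRNA the change was -0.56 (SE 0.18, adjusted p = 0.141), and without SA1Q+gRNA replicate 1 it was -0.88 and HMOX1 was called (adjusted p = 0.0470, where 0.345% of all genes were), again with 1 library in the group.

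Neither of the 2 regulators was called among the groups. NFE2L2 (chromosome 2, 178095031 to 178129859, minus strand) ran from 51.0 to 63.7 CPM, with the lowest mean in SA1Q+gRNA at 53.3 ± 3.36 CPM and the highest in SA1+gRNA at 61.3 ± 3.50 CPM (SD, n = 2). Its estimates against ctrl lay between -0.10 and 0.10 on the log2 scale, and its adjusted p over the 7 groups was 0.536. KEAP1 (chromosome 19, 10596796 to 10613481, minus strand) was at 70.9 and 72.7 CPM in SA1Q and 91.0 and 76.8 CPM in ctrl, a log2 change of -0.22 (SE 0.10, adjusted p = 0.206). Its ctrl pair spanned much of the range of the gene, and the ctrl library that stood apart was the highest of all 14. The KEAP1 estimate in SA2Q was 0.01 (SE 0.10, 95% interval -0.19 to 0.22), and its adjusted p over the 7 groups was 0.479. Without both libraries that stood apart KEAP1 was called, with OSGIN1, lower in the SA1 lines than in the SA2 lines and lower in the SA1Q line than in the SA2Q line, where the estimates over all libraries were -0.12 (SE 0.06, adjusted p = 0.293) and -0.18 (SE 0.07, adjusted p = 0.194). Calls over all genes also rose in that setting, to 12.3% against 1.49% with all libraries for the SA1 and SA2 lines, and to 11.8% against 2.75% for the SA1Q and SA2Q lines.

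GCLC and GCLM encode the catalytic and modifier subunits of glutamate-cysteine ligase, which makes the first step of glutathione synthesis. GCLM (chromosome 1, 94352590 to 94375012, minus strand) was at 37.1 and 40.8 CPM in SA1Q, 40.6 and 40.3 CPM in SA1Q+gRNA, and 47.7 and 51.2 CPM in SA1+gRNA. It was at 40.3 and 37.6 CPM in SA2Q, 43.2 and 43.9 CPM in SA2Q+gRNA, 44.5 and 46.5 CPM in SA2+gRNA, and 48.1 and 41.5 CPM in ctrl. The order of the group means was much like that of HMOX1, with the Q enzymes without guide lowest and SA1+gRNA highest, but the whole range was 1.38-fold. Against ctrl the GCLM estimate was -0.20 in SA1Q (SE 0.09, adjusted p = 0.227) and -0.20 in SA2Q (SE 0.09, adjusted p = 0.546). Its adjusted p over the 7 groups was 0.182, and it was called in 2 of 24 settings, with DESeq2 and without both libraries that stood apart. GCLC (chromosome 6, 53362140 to 53409927, minus strand) ran from 53.1 to 65.6 CPM, with means of 55.4 ± 3.31 CPM in SA1Q+gRNA and 64.4 ± 1.71 CPM in SA1+gRNA at the ends, and its adjusted p over the 7 groups was 0.511. Its change against ctrl was 0.02 in SA1Q (95% interval -0.16 to 0.19) and -0.04 in SA2Q (-0.22 to 0.14).

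NQO1 encodes NAD(P)H quinone dehydrogenase 1, a 2-electron reductase of quinones (chromosome 16, 69743304 to 69760533, minus strand). It was at 7.12 and 6.71 CPM in SA1Q, 5.76 and 6.32 CPM in SA1Q+gRNA, and 7.26 and 8.37 CPM in SA1+gRNA. It was at 8.36 and 8.43 CPM in SA2Q, 7.70 and 8.75 CPM in SA2Q+gRNA, 6.36 and 8.86 CPM in SA2+gRNA, and 7.28 and 7.80 CPM in ctrl. The 4 SA1Q-line libraries were the lowest apart from SA2+gRNA replicate 1, and the 4 SA2Q-line libraries did not overlap them. The change of NQO1 between the SA1Q and SA2Q lines was -0.36 (SE 0.11, adjusted p = 0.0887), and DESeq2 called it. Against ctrl its largest estimates were -0.32 in SA1Q+gRNA (SE 0.15, adjusted p = 0.374) and 0.15 in SA2Q (SE 0.15, adjusted p = 0.825). NQO1 has 4 transcript models in the files, and the choice of model moved its log2 ratios by at most 0.08.

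TXNRD1 encodes cytosolic thioredoxin reductase, and SRXN1 encodes sulfiredoxin, which restores overoxidized peroxiredoxins. TXNRD1 (chromosome 12, 104680460 to 104744085, plus strand) had its lowest group mean in SA1Q+gRNA at 300.2 ± 3.41 CPM and its highest in SA2Q+gRNA at 338 ± 6.09 CPM, with 308 ± 33.2 CPM in ctrl. SRXN1 (chromosome 20, 627268 to 634014, minus strand) ran from 112 ± 8.42 CPM in SA1Q+gRNA to 124 ± 7.38 CPM in SA2Q+gRNA, with 116 ± 17.2 CPM in ctrl. The ctrl pair spanned much of the range of both genes, and ctrl replicate 1 was the higher of its pair. Their adjusted p over the 7 groups was 0.586 and 0.831. TXNRD1 overlaps EID3, and NFE2L2 overlaps MIR3128. The other 7 genes overlap no named entry of the files.

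**Figure D2:**
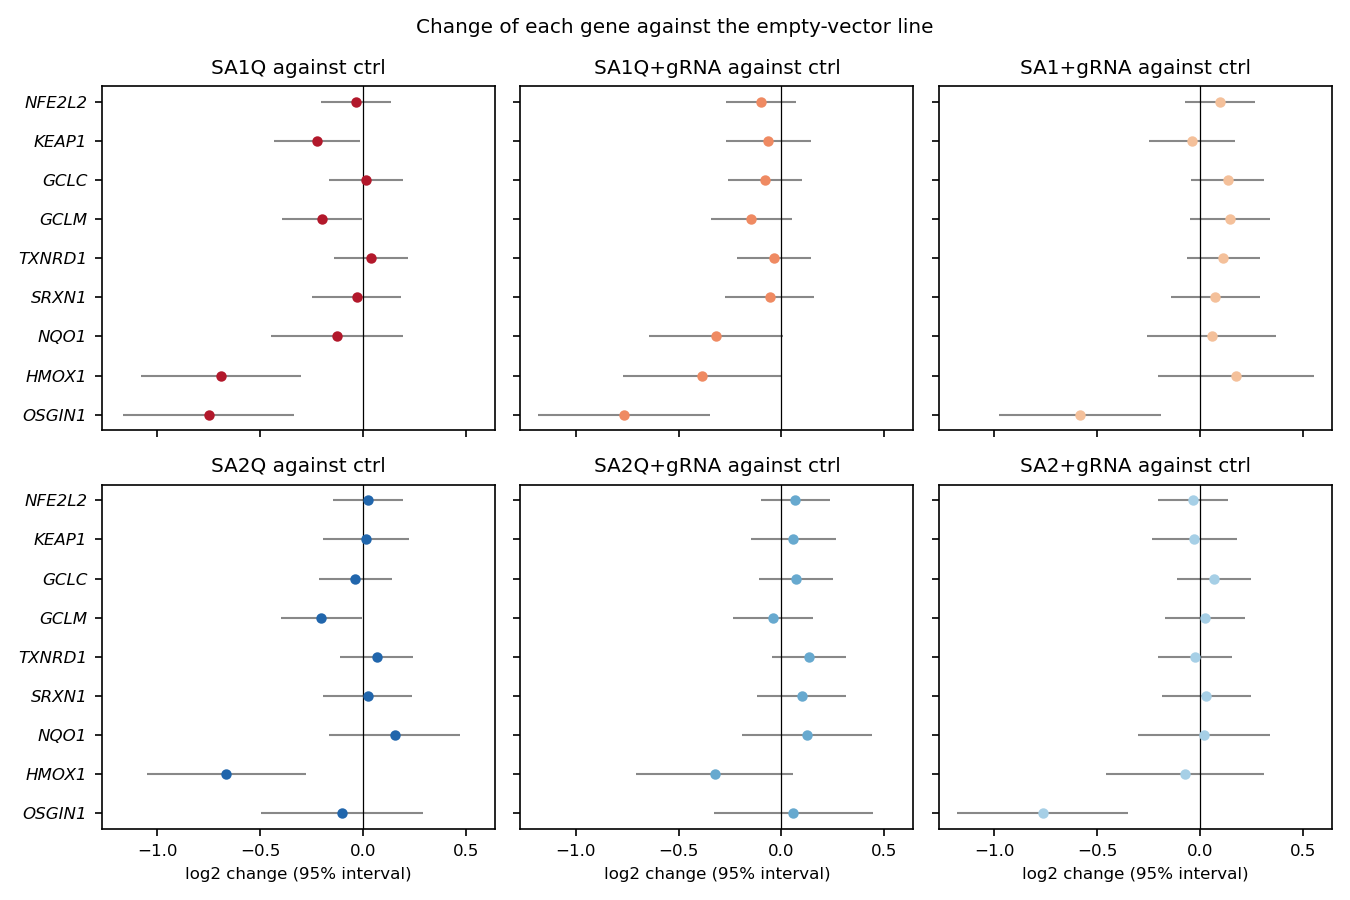
Log2 change of each of the 9 genes against ctrl in the 6 other groups, with 95% intervals from the edgeR fit. HMOX1 lies at -0.69 in SA1Q and -0.66 in SA2Q, OSGIN1 lies between -0.76 and -0.58 in 4 groups, and the intervals of the other 7 genes stay within -0.64 and 0.47.

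Against ctrl, no member was called by edgeR in any of the 6 comparisons. In SA1Q against ctrl 0 of 9 were called where 2.8% of all genes were, 4 had an unadjusted p under 0.05 (KEAP1, HMOX1, GCLM and OSGIN1, against 21.2% of all genes), and DESeq2 (7.4% of all genes) and limma (3.34%) each called 2, HMOX1 and OSGIN1. The libraries of 5 genes, KEAP1, HMOX1, NQO1, GCLM and OSGIN1, all lay lower in SA1Q than in ctrl, where 22.9% of all genes did. The summed level of 9 fibroblast markers was also lower, at 6.33 to 6.67 CPM in SA1Q and 10.4 to 11.8 CPM in ctrl, with COL1A1 its main part and DCN, FAP and THY1 at or near 0, and the sums of 6 blood-cell markers (131 to 142 CPM in SA1Q and 160.3 to 162 CPM in ctrl) and of 8 markers of the 293 line (1501 to 1588 CPM in SA1Q and 1614 to 1627 CPM in ctrl) were lower too. The part of these markers in the 9 genes' values was not tested. In SA2Q 0 of 9 were called (0.0853% of all genes), 2 had an unadjusted p under 0.05 (HMOX1 and GCLM, against 8.86%), DESeq2 called HMOX1 (0.554% of all genes) and limma called 0. The pairs of HMOX1 and GCLM lay wholly below ctrl (18.8% of all genes) and those of NQO1 wholly above (19.8%). In SA1Q+gRNA 0 of 9 were called (1.04%), 1 had an unadjusted p under 0.05 (OSGIN1, against 13.9%), DESeq2 called 0 and limma called OSGIN1 (1.39%). All 9 estimates were below 0 there, where 49.3% of all genes were, and 5 did not overlap and were lower (16.1%). In SA2Q+gRNA none of 9 was called (0.067%) or had an unadjusted p under 0.05 (10.1%), and DESeq2 and limma called 0. NFE2L2, GCLC and TXNRD1 lay wholly above ctrl (20.4%) and HMOX1 wholly below (19.4%). In SA1+gRNA (0.0426%) and in SA2+gRNA (0.104%) 0 of 9 were called by any of the 3 tools, and OSGIN1 alone had an unadjusted p under 0.05, against 10.7% and 10.2% of all genes. OSGIN1 lay wholly below ctrl in both, where 18.0% and 17.2% of all genes did, and NFE2L2 and GCLC lay wholly above it in SA1+gRNA (18.1%). Leaving out HMOX1 and OSGIN1, the estimates of the 7 other genes against ctrl ran from -0.32 to 0.15 on the log2 scale over the 6 comparisons.

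Ctrl replicate 1 enters all 6 of these comparisons. With both libraries that stood apart left out, ctrl and SA1Q+gRNA were 1 library each and were assumed to vary like the other groups. HMOX1 was then the 1 member called in SA1Q, and 0 of 9 were called by edgeR in the other 5 groups, where 1.54% to 5.11% of all genes were called and 2 to 4 of the 9 had an unadjusted p under 0.05 (15.2% to 21.0% of all genes). In SA1Q against ctrl the KEAP1 estimate was -0.10 (SE 0.09, adjusted p = 0.543) and that of GCLM -0.09 (SE 0.09, adjusted p = 0.608), against -0.22 and -0.20 with all libraries. GCLM was also at -0.09 in SA2Q, and KEAP1 at 0.14 there. Over the 6 groups the estimates ran from -0.30 to 0.11 for NQO1, from -0.06 to 0.11 for GCLC and from -0.06 to 0.08 for NFE2L2. TXNRD1 and SRXN1 were above 0 in all 6, with the highest values in SA2Q+gRNA at 0.25 (adjusted p = 0.0652) and 0.26 (adjusted p = 0.0941). In SA1Q+gRNA 7 of the 9 estimates were below 0, where 48.6% of all genes were, in place of all 9.

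With edgeR and all libraries, adding guide to a Q line called no gene of the series, so 0 of 9 stood against 0.0% in both lines. In SA1Q+gRNA against SA1Q none of the 9 had an unadjusted p under 0.05 (12.2% of all genes), and DESeq2 (0.00705% of all genes) and limma called 0. Without SA1Q+gRNA replicate 2 edgeR called 1, HMOX1, where 12.6% of all genes were called. KEAP1 lay wholly higher in SA1Q+gRNA than in SA1Q (19.3% of all genes), and NQO1, GCLC and TXNRD1 wholly lower (19.4%). In SA2Q+gRNA against SA2Q none of the 9 had an unadjusted p under 0.05 (1.77% of all genes), DESeq2 and limma called 0, and 8 of the 9 estimates were above 0. The libraries of 6 genes did not overlap and were higher in SA2Q+gRNA than in SA2Q, where 21.2% of all genes were. In the difference between the guide effects of the 2 Q lines no gene of the series was called by edgeR (0.0%), and none of the 9 had an unadjusted p under 0.05 (5.66% of all genes), with 0 called by DESeq2 or limma. Between SA1Q+gRNA and SA1+gRNA all 9 estimates were below 0, where 49.7% of all genes were, but 0 were called by edgeR (0.962%), DESeq2 or limma. Of these, 5 had an unadjusted p under 0.05, NFE2L2, HMOX1, NQO1, GCLC and GCLM (17.4% of all genes), and 8 did not overlap and were lower in SA1Q+gRNA, where 21.2% of all genes were (20.6% were higher). SA1Q+gRNA replicate 1 stood apart, and without it and ctrl replicate 1 all 9 estimates were still below 0 and HMOX1 was called (-0.88, adjusted p = 0.00893, where 1.32% of all genes were called). The blood-cell marker sum was lower as well, at 123 to 132 CPM in SA1Q+gRNA and 161.6 CPM in both SA1+gRNA libraries, and its part in these values was not tested.

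Beyond the 9 genes, 67 others of the NRF2 pathway were listed by function and 66 of them were tested, all but GPX2. In the test over the 7 groups 5 of the 66 were called, SLC7A11, GLRX, PIR, CBR3 and IDH1 (1.57% of all genes), and 22 had an unadjusted p under 0.05 (16.8%). DESeq2 called 15 (8.97%) and limma 5 (1.52%). The count was 22 without both libraries that stood apart, where 11.0% of all genes were called. With 1 library left out it was 11 without SA1Q+gRNA replicate 2 and 10 without either ctrl library, and 2 without either SA1+gRNA library, SA1Q replicate 2, SA2+gRNA replicate 1 or SA2Q replicate 1. It was 1 without SA2Q replicate 2 or either SA2Q+gRNA library. SLC7A11, the transporter that brings in cystine for glutathione synthesis (chromosome 4, 139085248 to 139163503, minus strand), had the smallest p (adjusted p = 0.000257) and was called in all 24 settings. It was at 11.98 and 12.2 CPM in SA1Q, 10.9 and 13.99 CPM in SA1Q+gRNA, and 27.3 and 31.1 CPM in SA1+gRNA. It was at 18.2 and 15.8 CPM in SA2Q, 17.0 and 16.5 CPM in SA2Q+gRNA, 24.7 and 23.9 CPM in SA2+gRNA, and 21.3 and 23.8 CPM in ctrl. The 8 libraries of the Q enzymes all lay below the 6 libraries of the wild-type enzymes and ctrl. That split was seen in the values, and the share of all genes that split so was not counted. SLC7A11 fell by 0.90 in SA1Q (SE 0.12, adjusted p = 0.00234) and by 0.85 in SA1Q+gRNA (SE 0.12, adjusted p = 0.00424) relative to ctrl, and its estimate was -0.41 in SA2Q (SE 0.12, adjusted p = 0.279). It overlaps the antisense gene SLC7A11-AS1, and the sources used here do not state whether counting used the strand.

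In SA1Q against ctrl 4 of the 66 listed genes fell and none rose, SLC7A11, PIR, CBR3 and BLVRB, where 2.8% of all genes were called in either direction. PIR, an iron-binding nuclear protein, was at 9.77 and 8.02 CPM in SA1Q and 13.2 and 14.03 CPM in ctrl and fell by 0.61 (SE 0.13, adjusted p = 0.0250). CBR3, a carbonyl reductase, was at 15.2 and 13.9 CPM in SA1Q and 20.5 and 18.8 CPM in ctrl and fell by 0.43 (SE 0.09, adjusted p = 0.0288). BLVRB, which encodes biliverdin reductase B, fell by 0.49 (SE 0.11, adjusted p = 0.0335). The pairs of SLC7A11, PIR and CBR3, looked at because these genes were called, lay wholly lower in SA1Q than in ctrl, where 22.9% of all genes did. The calls of PIR, CBR3 and BLVRB were lost without either SA1Q library, at an adjusted p of 0.168 for each without SA1Q replicate 2, and CBR3 and BLVRB were also lost without ctrl replicate 1 or without any 1 library of SA2Q or SA2Q+gRNA. PIR was lost without ctrl replicate 2. The count was 1 without either SA1Q library, 2 without any 1 library of SA2Q or SA2Q+gRNA, 11 without either SA1Q+gRNA library and 12 without ctrl replicate 2. Without both libraries that stood apart it was 12, with 8 lower and 4 higher, where 7.32% of all genes were called. The median of the 66 was -0.12 on the log2 scale, against 0.00 for all genes tested, with 45 below 0. CBR3 overlaps CBR3-AS1 and PIR overlaps PIR-FIGF.

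By function, the glutathione list had 1 of 14 called in SA1Q against ctrl and a median of -0.20, and the list of quinone, carbonyl and xenobiotic metabolism had 1 of 14 and a median of -0.35. That median includes AKR1B10, AKR1C1, AKR1C2, AKR1C3 and UGT1A6, which were near the limit of detection (medians of 0.456, 0.161, 0.0893, 0.0813 and 0.0612 CPM), and the AKR1C genes have near-identical copies. The estimates of all 8 heme and iron genes were below 0, with 1 called and a median of -0.17. The list of other targets had 1 of 5 called and a median of -0.05. NADPH supply (0 of 6, median -0.16), thioredoxin and peroxiredoxin (0 of 7, median -0.04) and the regulators of NRF2 (0 of 12, median 0.09) had no called gene by edgeR, with 2, 1 and 1 at an unadjusted p under 0.05. DESeq2 called 1, 1 and 0 of these lists and limma 0, 1 and 0. At an unadjusted p under 0.05 there were 9 of 14 glutathione genes and 7 of 14 quinone, carbonyl and xenobiotic genes. The heme and iron list had 3 of 8 and the other targets 2 of 5. Over all 66, 25 had an unadjusted p under 0.05 (21.2% of all genes), DESeq2 called 10 (7.4%) and limma 5 (3.34%). In SA2Q against ctrl none of the 66 was called by edgeR, DESeq2 or limma, 7 had an unadjusted p under 0.05 (8.86% of all genes), and the median was 0.03. None was called by edgeR in SA2Q+gRNA, SA1+gRNA or SA2+gRNA against ctrl either, where 9, 7 and 7 had an unadjusted p under 0.05 (10.1%, 10.7% and 10.2% of all genes), DESeq2 called 0, 0 and 1, and limma called 0 in each. In SA1Q+gRNA against ctrl edgeR called 1, SLC7A11 (1.04% of all genes), and 15 had an unadjusted p under 0.05 (13.9%). DESeq2 called 8 there and limma 4 (1.39%). Guide against no guide called 0 of the 66 with each tool in both Q lines. There 10 had an unadjusted p under 0.05 in SA1Q (12.2%) and 0 in SA2Q (1.77%). Without both libraries that stood apart edgeR called 8 in SA2Q (7 higher, 3.42% of all genes), 10 in SA2Q+gRNA (7 higher, 5.11%), 5 in SA1+gRNA (4 higher, 2.3%) and 4 in SA2+gRNA (3 higher, 2.84%).

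**Figure D3:**
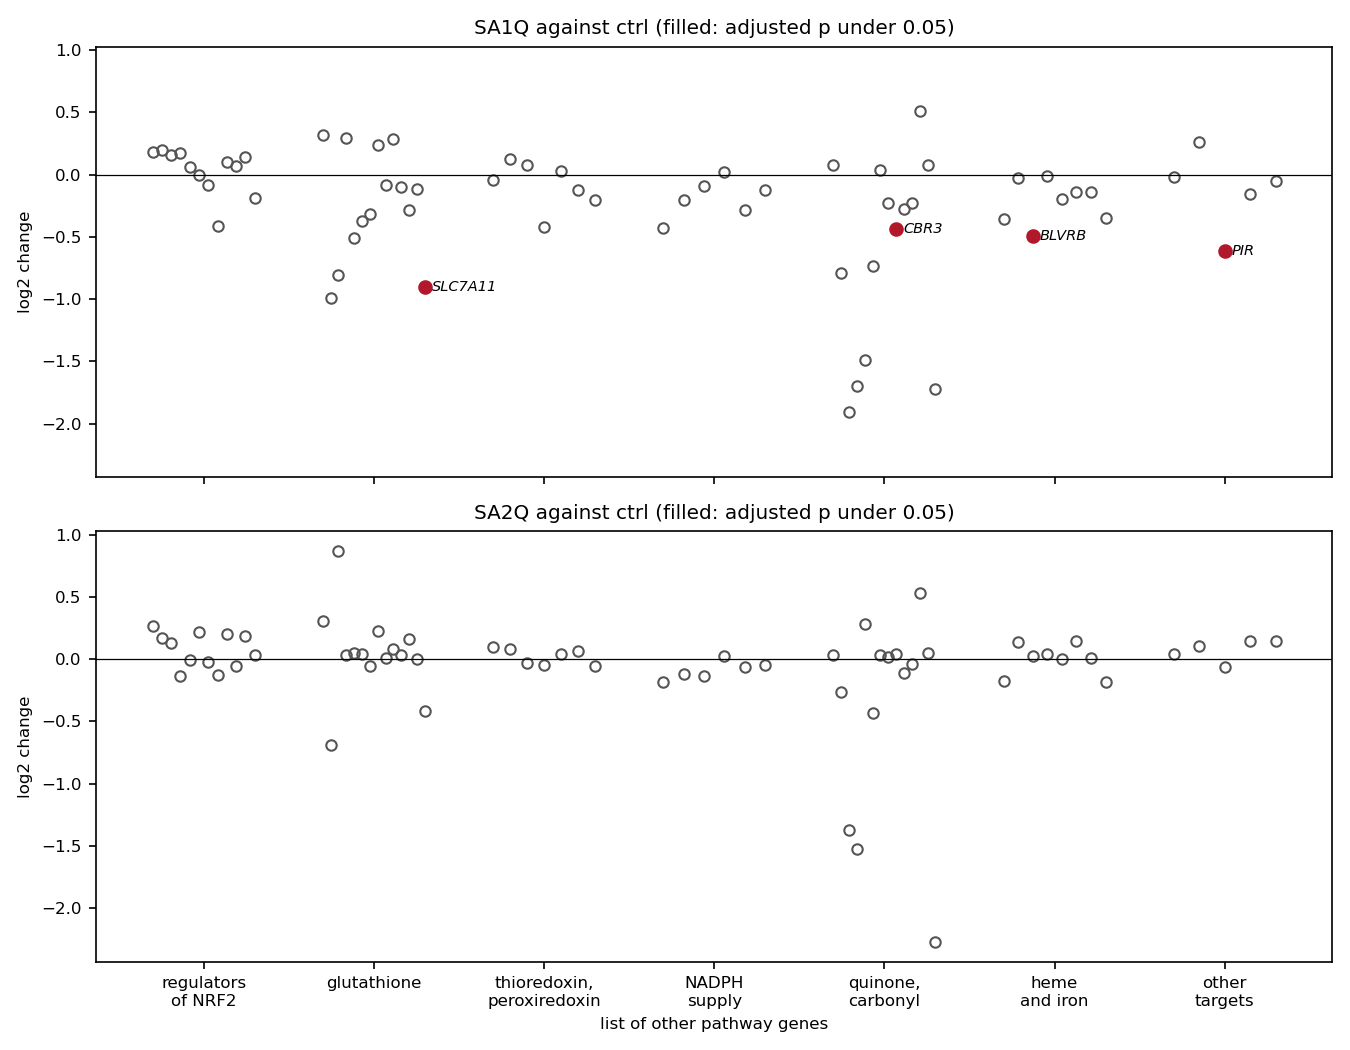
Log2 changes of the other NRF2 pathway genes, grouped by function, in SA1Q against ctrl and SA2Q against ctrl. Each point is a gene, filled points are called and the line marks 0. The called genes are the 4 that fell in SA1Q, SLC7A11, PIR, CBR3 and BLVRB, and the list medians in SA1Q run from -0.35 to 0.09.

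Between the SA1Q and SA2Q lines, 7 of the 66 listed genes were lower in the SA1Q line and 1 was higher, where 2.75% of all genes were called. GLRX (glutaredoxin) changed by -0.54 (SE 0.09, adjusted p = 0.00528), PIR by -0.52, GGT1 by -0.46, SLC7A11 by -0.45, BLVRB by -0.42, CBR3 by -0.39 and SOD1 by -0.28. CUL3, the scaffold of the ligase that degrades NRF2, was the 1 higher gene, at 0.27 (SE 0.06, adjusted p = 0.0272), and its call was lost in 7 of 24 settings, with limma on either scale and without SA1Q replicate 1 or any 1 library of SA2Q or SA2Q+gRNA. The median of the 66 was -0.11, against 0.00 for all genes tested. The count was 25, 23 lower and 2 higher, without both libraries that stood apart (11.8% of all genes), and was 4 without either SA1Q library or SA2Q replicate 1, 3 without SA2Q replicate 2 or SA2Q+gRNA replicate 1 and 2 without SA2Q+gRNA replicate 2, while GLRX and PIR were called in all 24 settings. Over all SA1 against all SA2 lines 5 of the 66 were called (1.49% of all genes), CBR3 (-0.35), BLVRB (-0.35), GLRX (-0.36) and PIR (-0.31) lower and CUL3 (0.23) higher in the SA1 lines, and CBR3 was called in all 24 settings there but CUL3 in 13 and PIR in 11. The count there was 1 to 3 without any 1 library of SA1Q, SA1+gRNA, SA2Q, SA2Q+gRNA or SA2+gRNA, 9 without SA1Q+gRNA replicate 1 (4.36% of all genes) and 20 without both libraries that stood apart (12.3%). With guide, SA2Q+gRNA against SA2+gRNA, 0 of the 66 were called by edgeR (0.0122% of all genes). DESeq2 called 1 and limma 0, and 7 had an unadjusted p under 0.05 (7.86% of all genes). With guide, SA1Q+gRNA against SA1+gRNA, 5 of the 66 were called and all were lower (0.962% of all genes were called), SLC7A11 by -1.22 (SE 0.12, adjusted p = 0.000293), GLRX by -0.72, PIR by -0.65, IDH1 by -0.58 and MGST1 by -0.52. In that contrast SLC7A11 alone was called without SA1+gRNA replicate 1, 2 genes were called without SA1+gRNA replicate 2 or SA1Q+gRNA replicate 1, 3 without SA2Q replicate 1 or either SA2Q+gRNA library, 11 without SA1Q+gRNA replicate 2 (12.4% of all genes) and 8 when the pair that stood apart was left out (1.32%).

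Over the 14 libraries the levels of the 9 genes mostly ran in the same direction, but how closely differed from pair to pair. As a description across libraries that share groups and depth, Pearson's r of log2 levels was 0.87 between HMOX1 and GCLM (0.90 in the 12 libraries left without the pair that stood apart) and 0.78 between TXNRD1 and SRXN1 (0.79). Most other pairs lay lower, such as KEAP1 and SRXN1 (0.74), NFE2L2 and GCLC (0.69) and HMOX1 and TXNRD1 (0.17). HMOX1 and OSGIN1, the 2 genes with the widest range, had an r of 0.05. GCLC and OSGIN1, at -0.01, were the only pair below 0 over the 14 libraries. In the 12 libraries this pair (-0.05), HMOX1 and OSGIN1 (-0.04) and GCLM and OSGIN1 (-0.09) were below 0. The order of the pairs also changed there. KEAP1 and NQO1 rose from 0.46 to 0.82, HMOX1 and GCLC from 0.42 to 0.78 and GCLC and GCLM from 0.61 to 0.80. NFE2L2 and GCLC fell from 0.69 to 0.49. How other sets of genes compare was not tested. Among all tested genes with a mean of at least 1 CPM, those most like HMOX1 were IVD (r = 0.887), P2RX4 (0.879) and SLC1A5 (0.879). For OSGIN1 they were NAGS (0.877), CNN2 (0.866) and ADGRF4 (0.853), and for GCLM they were RPL14 (0.878), RPL32 (0.876) and IVD (0.875). For SRXN1 they were PSMC2 (0.928), SEC61B (0.906) and the thioredoxin pathway gene PRDX1 (0.905). For GCLC they were G3BP1 (0.904), SLC71A2 (0.862) and UGDH (0.861), which makes UDP-glucuronate. The 3 genes most like NFE2L2, KEAP1, NQO1 or TXNRD1 included none of the listed pathway genes.

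**Figure D4:**
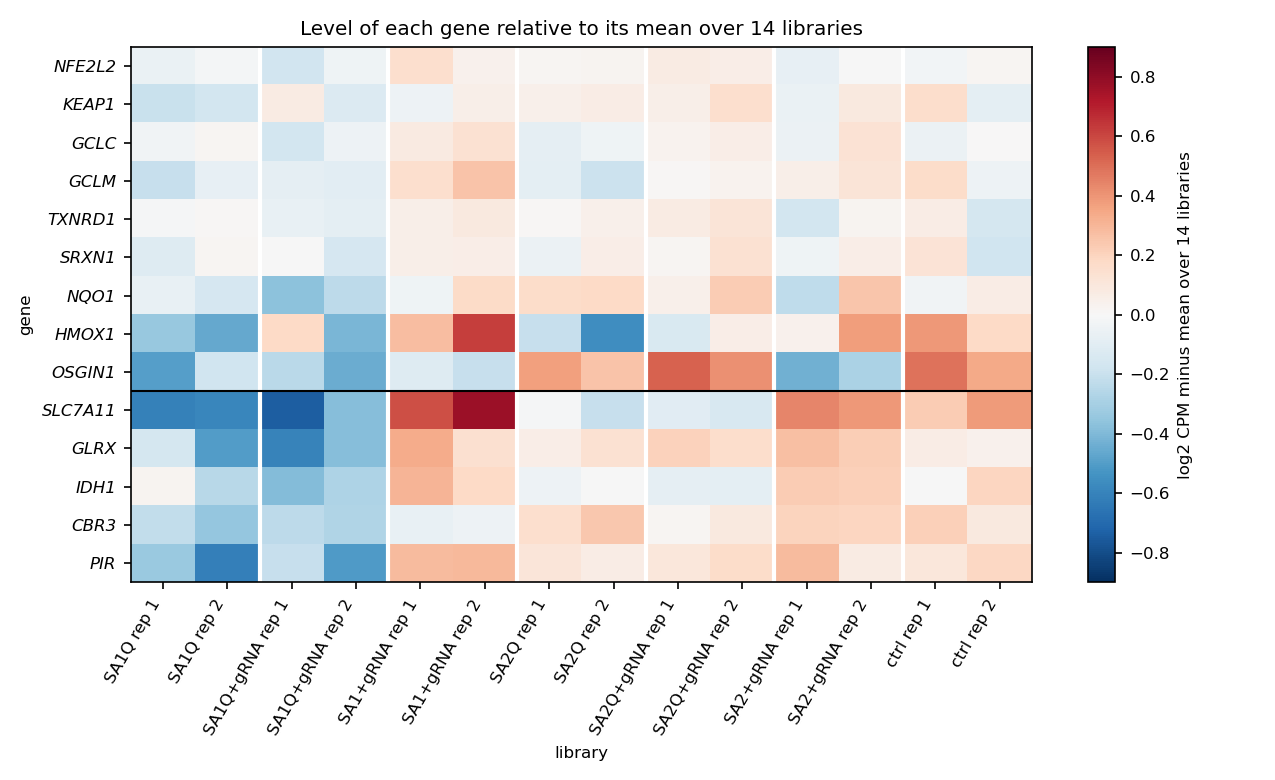
Level of each of the 9 genes in each of the 14 libraries, as log2 CPM minus the gene's mean over the libraries, with ctrl last. Below the dividing line are SLC7A11, GLRX, IDH1, CBR3 and PIR, shown because they were called over the 7 groups. HMOX1 is low in SA1Q and SA2Q, OSGIN1 is high in SA2Q, SA2Q+gRNA and ctrl, and the rows of NFE2L2, KEAP1, GCLC, TXNRD1 and SRXN1, whose highest library exceeds the lowest by 1.21-fold to 1.28-fold, stay near 0.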

How the data were processed

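Polyadenylated RNA was sequenced in 14 libraries, and each library's file had 46830 RefSeq transcript rows. The count column held whole fragments per transcript, deposited without normalization. The FPM column, a signal that the authors scaled to the library total, served to pick 1 transcript per gene. The FPKM column, which the authors also divided by transcript length per the file headers, served in alternatives. Trim Galore, STAR 2.4.2a and hg19 are named in the submitters' processing notes, and the counting tool is not given in the sources used here. Of 45595 accessions, 98.6% were matched to a symbol. The 887 rows without one, with 0.808% of the counts, and transcripts under 200 nucleotides were left out. Testing used edgeR 4.0.16 under R 4.3.3, with TMM scaling, filterByExpr at a minimum count of 10 and two-sided quasi-likelihood tests in 1 fit of all 14 libraries without covariates. With 2 libraries per group this left 7 residual degrees of freedom, and the common biological variation was 8.67%, which sets the precision. DESeq2 1.42.0 and limma 3.58.1 were alternatives, with other scaling, no low-count filter, other transcript choices, a replicate block, a length offset added after the data had been seen, and each library left out. The code was tested on simulated counts. All 9 genes are described in every group. Of the other pathway genes those called are named, and for each of the 9 the 3 most alike by Pearson's r were ranked. The genes, lists and tests were chosen with earlier results of these data known, and a list supports nothing beyond its counts.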

Additional observations from a re-analysis of the deposited data

How the results depend on the processing

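With 2 libraries per group and 7 residual degrees of freedom, the fit cannot separate small changes of OSGIN1, whose libraries hold 56 to 178 fragments each. Of the alternative counts of called members 339 stayed within 1.5 times and 45 moved. Of the alternative values of single genes that were tallied, 993 kept direction and side of the threshold, 38 passed it newly, 15 lost it and 10 reversed. The tally did not take in every gene and comparison.

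Over the 7 groups the count of 1 became 3 with DESeq2, 2 without the low-count filter, 3 without both libraries that stood apart (ctrl replicate 1 and SA1Q+gRNA replicate 1), 2 with the length offset and 0 to 2 with 1 library left out. In SA1Q against ctrl 0 became 2 with DESeq2, without the filter, with limma on log2(FPKM + 0.1) and with the length offset, 1 with limma on log2(FPKM + 1) and without both libraries, and 0 to 2 with 1 left out. It became 1 with DESeq2 in SA2Q against ctrl, 1 with either limma scale or the length offset in SA1Q+gRNA against ctrl, and 0 to 1 with 1 left out in SA1Q+gRNA against SA1Q. In SA1Q+gRNA against SA1+gRNA it became 1 without both libraries or with the length offset and 0 to 1 with 1 left out. In SA1 against SA2 lines it became 1 with either limma scale, 2 without both libraries and 0 to 1 with 1 left out. In the SA1Q against the SA2Q line 1 became 2 with DESeq2 or without both libraries and 0 to 1 with 1 left out. Apart from fewer samples or genes tested, the cause was not tested. A group left with 1 library was assumed to vary like the other groups.

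Among the values tallied, those that reversed belonged to HMOX1 and OSGIN1. Small estimates of other members also changed sign without both libraries that stood apart. KEAP1 in SA1+gRNA against ctrl went from -0.04 to 0.09, and SRXN1 in SA1Q against ctrl from -0.03 to 0.13. HMOX1 in SA1+gRNA against ctrl ran from -0.0093 to 0.33 with 1 library left out, and in SA2+gRNA against ctrl from -0.25 to 0.086, with 0.04 without both libraries. OSGIN1 in SA2Q+gRNA against ctrl ran from -0.019 to 0.13. The HMOX1 difference between guide effects ran from -0.35 to 0.23.

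Same-numbered replicates mostly did not deviate together (r from -0.144 to 0.444 over 21 pairs of groups, 2 of them over 0.1), so the numbers were not taken as pairs. The highest r, 0.444, was between ctrl and SA1Q+gRNA, whose replicate 1 libraries both stood apart. With the replicate block the count over the 7 groups was 0, with OSGIN1 at an adjusted p of 0.067, and OSGIN1 stayed called between the SA1Q and SA2Q lines.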
